A study of Danio rerio with 4 samples.

Results

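The comparison of dibutyl phthalate (DBP) with control covered 17093 of the 35066 Ensembl genes listed for zebrafish testis, those with a mean of at least 1 FPKM (a fragment count divided by transcript length and by library depth) over the 4 libraries of the series. Of these, 15232 had a gene symbol. The testes came from wild type AB zebrafish aged 5 months. They were taken after 30 days of exposure to DBP, to diisobutyl phthalate (DiBP) or to DBP+DiBP together, or from unexposed controls. The labels call the fish male, whereas the design text of the series calls them female, and testis is the tissue throughout. No dose, vehicle or number of pooled fish is stated in the sources used here. Each of the 4 groups was 1 library, so the DBP and control values have no replicate check. Every difference below describes a pair of libraries, with no test. A gene was called higher or lower where log2(FPKM + 1) differed by at least 1, here termed 2-fold. This scale understates the change of genes with low values.

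DBP is a plasticizer ester whose monoester is known, mainly from rats, to lower androgen production by the fetal testis. A testis holds germ cells at successive stages, the Sertoli cells that nurse them, and an interstitium with steroid-producing Leydig cells, vessels, macrophages and contractile stroma. Signals that pass between these cells include cytokines, prostaglandins, steroids and retinoic acid. In whole tissue, fewer cells of a type and less RNA per cell cannot be told apart.

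The libraries were of similar total. FPKM values summed to 604779 in control and 575737 in DBP, and the median log2 ratio of DBP to control over the genes compared was 0.04. In all, 834 genes were at least 2-fold higher in DBP (4.88% of those compared) and 608 were lower (3.56%), together 8.44%. Counts for the gene lists below are to be read beside these shares. The 5th and 95th percentiles of the log2 ratio were -0.83 and 0.99. A 4-fold difference was reached by 97 higher and 120 lower genes, so more genes were lower than higher at 4-fold and fewer at 2-fold. The 2-fold split depended on scaling: it was 698 higher and 672 lower with libraries scaled by median ratios, and 977 and 545 with totals made equal. The balance also turned with the level of expression. Among 747 genes averaging at least 100 FPKM, 13 were higher (1.74%) and 37 lower (4.95%), whereas among 7572 genes averaging 1 to 5 FPKM, 403 were higher and 298 lower. Many calls rested on low values: 212 of the higher genes had under 1 FPKM in control and 189 of the lower had under 1 FPKM in DBP. A further limit is that 2122 of the genes compared carried the same 4 values as another row, so that 15843 measurements were distinct, and calls on such genes cannot be assigned to 1 gene.

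**Figure D1:**
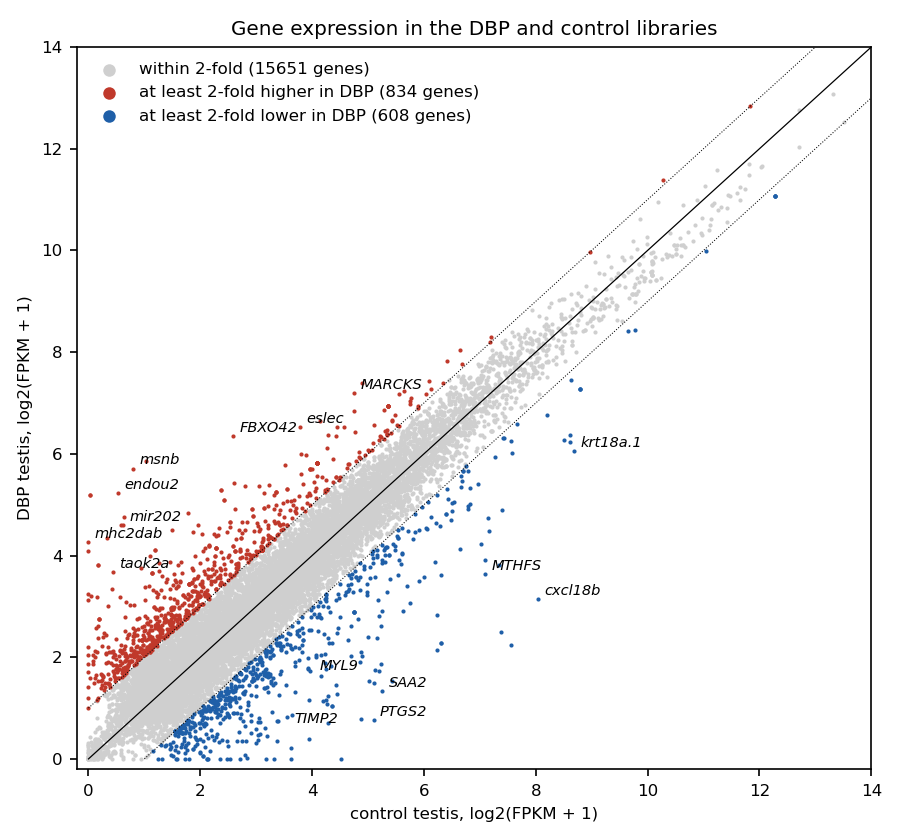
Expression of 17093 genes in the control testis library (horizontal axis) and the DBP testis library (vertical axis), both as log2(FPKM + 1), 1 point per gene. The solid line marks equal values and the dotted lines a 2-fold difference. Of the 834 genes above the upper dotted line, 403 averaged 1 to 5 FPKM over the 4 libraries, as did 298 of the 608 below the lower line. Both sides include highly expressed genes, such as rhocb among the higher and krt18a.1 and cxcl18b among the lower.

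Outside the heat shock, early-response and germ cell lists set aside here, the named genes with the lowest ratios of DBP to control were led by mediators of inflammation. On the early-response list itself, 35 of 50 genes were at least 2-fold lower. Those lists are not complete, and whether genes named below share the early response was not tested. With heat shock genes counted, hsp70.3 (log2 ratio -4.89) lay between cxcl18b and PTGS2. Values are given in the order control, DBP, DiBP and DBP+DiBP. The chemokine gene cxcl18b, whose product attracts neutrophils in zebrafish, stood at 264, 7.86, 85.1 and 24.8 FPKM, a log2 ratio of DBP to control of -4.90. PTGS2, the inducible cyclooxygenase that starts prostaglandin synthesis, stood at 33.3, 0.694, 11.5 and 3.29 FPKM, a log2 ratio of -4.34. For both genes control was the highest library and DBP the lowest. PTGIS, the prostacyclin synthase, was also at least 2-fold lower, at 4.45 FPKM in control and 1.23 in DBP. PTGS2 and PTGIS were the only calls among 17 genes of prostaglandin and leukotriene synthesis (11.8% lower, beside 3.56% of all genes). In that list 9 ratios were above 0 and 8 below. Its median was 0.03 and changed sign with the scaling.

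Of 69 genes of interleukins, chemokines and their receptors, 12 were at least 2-fold lower in DBP (3.56% of all genes were) and 2 were higher (4.88% of all genes). The median log2 ratio of the list was -0.11, beside 0.04 for all genes. Among the lower were cxcl8a, a neutrophil attractant, which was listed at 0 in DBP alone, with 11.3 FPKM in control, 3.57 in DiBP and 2.04 in DBP+DiBP. The CC chemokine ccl35.1 stood at 19.3, 2.55, 8.01 and 18.7 FPKM, so that it was low in DBP and close to control in DBP+DiBP. The chemokines that stood higher were ccl34b.9, with 1.15, 5.54, 0.660 and 10.1 FPKM, and ccl20b, which had all its values in common with another gene. A scan covered 225 families of genes that share the letters of their symbol. The cxcl family was 1 of 6 in which at least 3 members, and at least 20%, were called in a single direction. It had 5 of 13 members lower and 0 higher, with a median of -0.70. The cytokine il1b, which heads many inflammatory cascades, did not pass 2-fold, at 24.98, 14.1, 16.1 and 10.8 FPKM.

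In NF-kB and TNF signalling, 8 of 55 genes were at least 2-fold lower (14.5%, beside 3.56% of all genes). The 4 higher made up 7.27% (4.88% of all genes), and the median was -0.14. The inhibitors of NF-kB were among the lower: nfkbiaa stood at 128, 17.8, 61.6 and 54.5 FPKM (log2 ratio -2.78) and nfkbiab at 110, 30.5, 66.5 and 70.2 FPKM (log2 ratio -1.82). The co-stimulatory receptor gene tnfrsf9a stood at 11.3, 0.167, 0.898 and 0.372 FPKM (log2 ratio -3.40), so that control alone was high. The 4 higher members were the transcription factor subunit nfkb1, the kinase IKBKB and the ligands TNFSF10 and tnfsf13b. Of these, nfkb1 stood at 2.07, 6.85, 7.51 and 2.40 FPKM, high in the libraries of both single exposures. The subunit RELA differed little, at 3.34 FPKM (control) and 3.57 (DBP). In JAK-STAT signalling, 2 of 46 genes were lower (4.35%, near the share of all genes) and 0 higher, with a median of 0.03. The lower were the 2 copies of SOCS3, a feedback inhibitor of cytokine receptors. They stood at 38.7 and 27.9 FPKM in control and at 13.6 and 9.04 in DBP, while STAT3 was at 2.36 and 3.44.

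**Figure D2:**
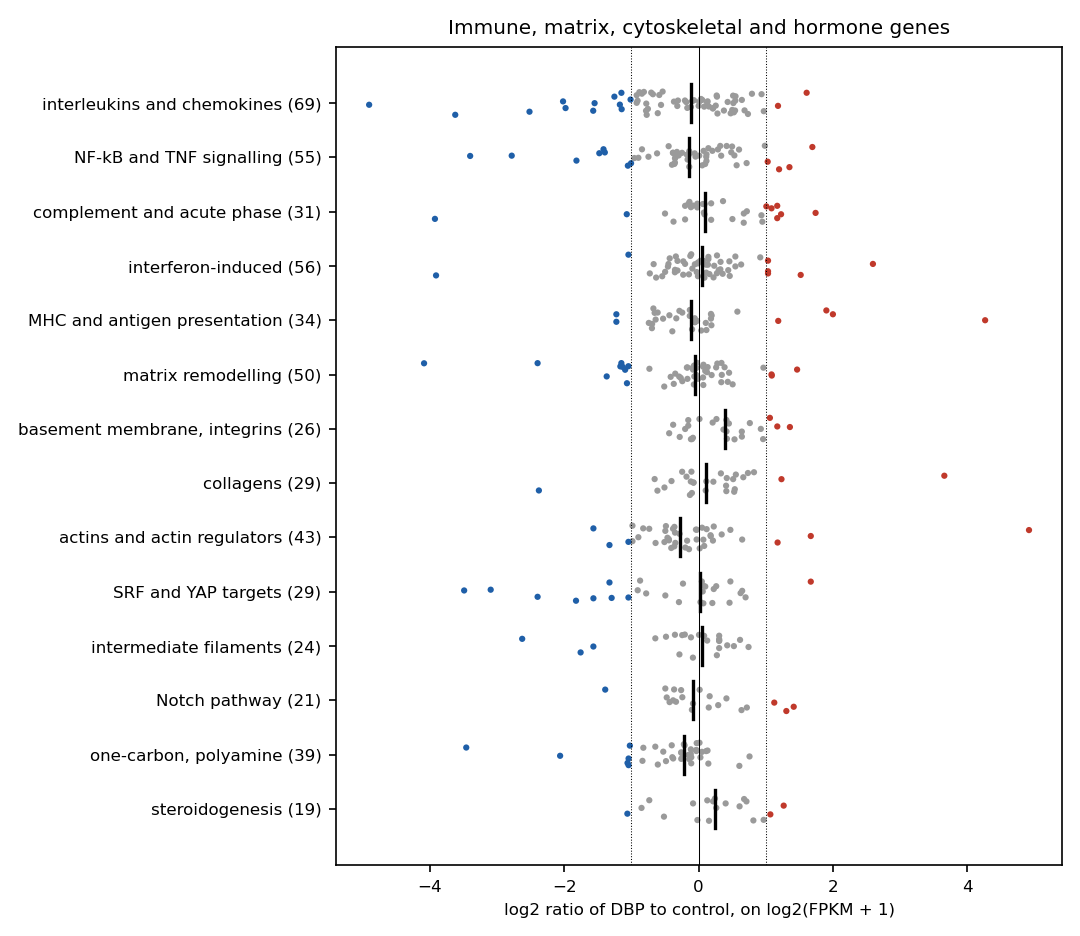
Log2 ratio of DBP to control, on log2(FPKM + 1), for each member of 14 gene lists, 1 point per gene, with the number compared in brackets. Black bars mark the medians, dotted lines a 2-fold difference, red and blue the genes called higher and lower. Calls lie mostly below 0 for interleukins and chemokines and for SRF and YAP targets, and only above 0 for the basement membrane list, while the medians lie between -0.28 and 0.39.

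Not all immune genes stood lower in DBP. Of 31 genes of complement and the acute phase, 6 were at least 2-fold higher (19.4%) and 2 lower (6.45%). Over all genes these shares were 4.88% and 3.56%. The 6 higher held 5 distinct measurements, since c6.1 and c6.2 had identical values. The higher included c1qa and c1qc, which start the classical complement pathway, and c7b, part of the membrane attack complex, at 1.31, 6.74, 1.09 and 6.32 FPKM. All of these were under 8 FPKM in control and DBP. In contrast, SAA2, an acute phase apolipoprotein, stood at 37.2, 1.52, 1.33 and 193 FPKM, low in both single exposures and highest in DBP+DiBP. Of 56 interferon-induced genes, 5 stood at least 2-fold higher (8.93%, with 3 distinct measurements) and 2 lower (3.57%). The lower share was that of all genes, and the median was 0.05. ifit8 stood at 1.3998, 13.5, 13.8 and 3.24 FPKM (log2 ratio 2.59), whereas ifitm1, whose family restricts virus entry in mammals, stood at 42.3, 1.89, 2.96 and 33.7 FPKM (log2 ratio -3.90). In the ifi family 4 of 17 were higher, but ifi44f3, ifi44f4 and ifi44f5 shared their values and may be a single measurement.

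Of 34 genes of MHC and antigen presentation, 4 were at least 2-fold higher (11.8%) and 2 lower (5.88%). Over all genes these shares were 4.88% and 3.56%. The class II gene mhc2dab was listed at 0 in control and stood at 18.2, 15.4 and 1.78 FPKM in the 3 exposed libraries. Another class II gene, mhc2daa, stood at 1.37, 8.49, 10.1 and 8.94 FPKM, so control was the lowest library for both. The class II partner chain genes cd74a and cd74b were close to control, at 117 and 27.8 FPKM in control and 133 and 30.2 in DBP. The peptide transporter gene tap2a and the proteasome gene psmb13a were higher, and psmb13a stood at 2.59 FPKM in control and 12.4 in DBP. The lower pair, mhc1zba and mhc1zda, had identical values.

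Genes of the cytoskeleton and of adhesion gave some of the largest differences in either direction. msnb, which encodes a moesin that ties actin filaments to the plasma membrane, had the highest ratio of the named genes. It stood at 0.732, 51.3, 41.1 and 7.54 FPKM, a log2 ratio of 4.92. Control was the only library under 1 FPKM. Of the other 42 actins and actin regulators, 2 were at least 2-fold higher and 3 lower, and the median of the whole list of 43 was -0.28. The cytoplasmic actin gene actb1 was among the lower, at 871, 347, 542 and 958 FPKM (log2 ratio -1.32). The sister gene actb2 did not pass 2-fold, with 687 FPKM in control and 488 in DBP.

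Many actin and contractile genes answer to the transcription factors SRF and YAP. In a list of 29 such targets, put together after the values had been seen, 8 were at least 2-fold lower (27.6%) and 1 was higher (3.45%). Over all genes these shares were 3.56% and 4.88%. The median of the list was 0.03 and changed sign with the scaling. MYL9, a regulatory light chain of non-muscle and smooth muscle myosin, stood at 31.5, 1.90, 5.80 and 15.4 FPKM (log2 ratio -3.49). LIMA1, an actin cross-linker, stood at 17.9, 1.22, 12.6 and 10.4 FPKM (log2 ratio -3.09). In both, DBP was the lowest library. The matricellular gene CCN2 stood at 113, 31.2, 61.6 and 40.9 FPKM, and TAGLN at 47.7, 15.5, 21.4 and 53.7 FPKM. SRF itself did not pass 2-fold in either copy, with 5.38 FPKM in control and 2.41 in DBP for the more expressed. RND1, a small GTPase that loosens actin stress fibres in mammalian cells, stood at 18.4, 1.37, 5.61 and 2.61 FPKM.

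Some lower genes had a second copy of the same symbol that did not follow, which was noticed after the values had been seen. The other MYL9 gene had 33.8 FPKM (control) and 35.5 (DBP), and the other TAGLN gene at 302 and 474. TIMP2, an inhibitor of matrix metalloproteinases, stood at 28.2, 0.722, 10.5 and 3.45 FPKM in the lower copy (log2 ratio -4.08), and the other copy was at 15.9 and 13.3 in control and DBP. ACADSB, an acyl-CoA dehydrogenase, was at 8.78 and 0.907 FPKM in the lower copy and at 4.43 and 7.17 in the other. The gene table does not give the letters that name zebrafish copies, so these pairs are known here by symbol only.

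Of 24 intermediate filament genes, 3 were at least 2-fold lower (12.5%, beside 3.56% of all genes) and 0 higher. The median was 0.05 and 13 had a ratio above 0. The lower genes were the simple epithelial keratins krt18a.1, at 409, 65.6, 101 and 154 FPKM, krt8, at 190, 63.6, 82.5 and 143 FPKM, and the nuclear lamin LMNA. DBP was the lowest library for each keratin and control the highest. The heparan sulfate proteoglycan sdc4 stood at 167, 28.9, 69.8 and 57.8 FPKM (log2 ratio -2.49). The tight and gap junction list had 0 of 44 lower and 2 higher, PANX3 and cldn3d, and none of 15 cadherins was called.

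In the extracellular matrix, 9 of 50 genes of remodelling were at least 2-fold lower (18%), led by TIMP2, and 3 higher (6%). Over all genes the shares were 3.56% lower and 4.88% higher. Of 26 genes of basement membranes and integrins, 3 were higher (11.5%) and 0 lower (median 0.39). ITGA9, an integrin chain, stood at 1.51, 4.24, 4.09 and 1.31 FPKM, high in both single exposures. Of 29 collagens, 2 were higher (6.90%) and 1 lower (3.45%). COL1A1, the main fibrillar collagen chain, was higher at 42.2, 101, 93.7 and 88.1 FPKM. The type I collagen genes col1a1a (7.91 FPKM in control and 11.96 in DBP) and COL1A2 (2.22 and 3.32) did not pass 2-fold. The lower was col17a1a, a hemidesmosomal collagen, at 11.9, 1.48, 12.4 and 0.973 FPKM. The third, col28a1a, shared its values with another row.

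The machinery of protein synthesis was shifted by small steps over many genes. Of 91 cytosolic ribosomal protein genes, 85 had a lower value in DBP than in control and the median log2 ratio was -0.45, yet only RPL29 was at least 2-fold lower, at 806, 342, 450 and 629 FPKM. Of 47 ribosome biogenesis genes, 45 had a ratio below 0 and the median was -0.39, with POLR1D, a shared subunit of RNA polymerases I and III, the 1 gene at least 2-fold lower. None of 37 aminoacyl-tRNA synthetases was called, and 31 had a ratio below 0 (median -0.24). Of 83 translation factors, 4 were at least 2-fold lower and 0 higher. The eef family of elongation factors was also picked out by the scan, with 3 of 15 lower and a median of -0.54, but eef2a.1 and eef2a.2 had identical values. The medians of these 4 lists, though not of the eef family, were recomputed under 3 other scalings and kept their sign. Summed over the ribosomal protein genes, expression was 99163, 71296, 63549 and 101924 FPKM in the 4 libraries.

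Respiratory chain genes differed in size of shift by where they are encoded. All 13 genes of the mitochondrial genome had a lower value in DBP, with a median log2 ratio of -0.56. MT-CO2, a catalytic subunit of cytochrome oxidase, had 11610 FPKM (control) and 5926 (DBP). MT-ATP6, mt-atp8 and MT-CO3 were at least 2-fold lower, but their values were identical and count as 1 measurement. At the other end, MT-ND6, a complex I subunit on the light strand, was at 755 and 730 FPKM. Nuclear genes of the respiratory chain showed smaller differences: 0 of 37 complex I genes and 0 of 53 genes of complexes II to V were called. Their medians were -0.02 and -0.10, with 19 and 37 ratios below 0. The TCA cycle (24 genes) and mitochondrial carriers (43 genes) also had 0 called. Mitochondrial ribosomal proteins, which are nuclear encoded, had 59 of 73 ratios below 0 and a median of -0.26, with MRPL2 and mrpl20 at least 2-fold lower.

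**Figure D3:**
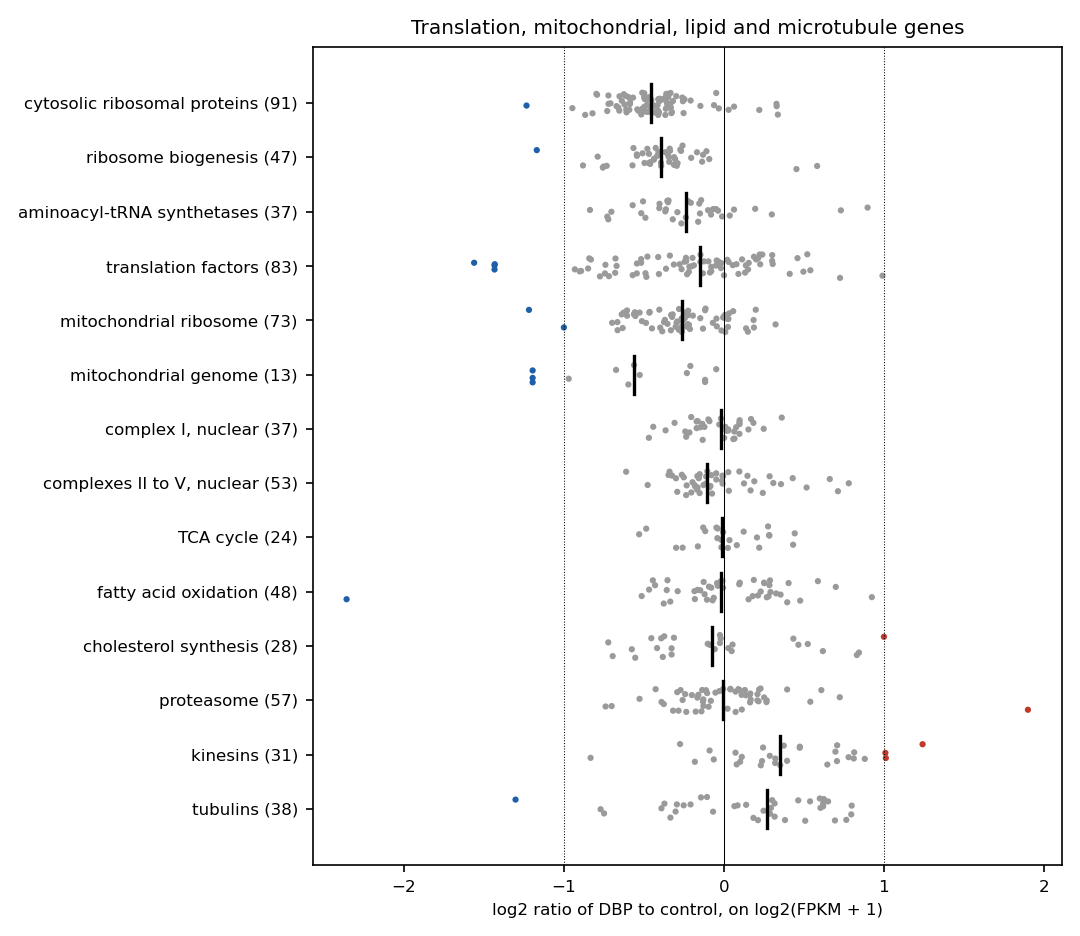
Log2 ratio of DBP to control, on log2(FPKM + 1), for each member of 14 lists of translation, mitochondrial, lipid, proteasome and microtubule genes, 1 point per gene, with the number compared in brackets. Black bars mark medians and dotted lines a 2-fold difference, with red and blue for genes called higher and lower. The points of the ribosomal list crowd to the left of 0 around a median of -0.45, whereas those of complex I centre on -0.02 and those of kinesins on 0.35.

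Of 39 genes of folate, methionine and polyamine metabolism, 6 were at least 2-fold lower (15.4%, beside 3.56% of all genes) and 0 higher. The median was -0.22. MTHFS, which returns stored folate to the active pool, stood at 136, 11.5, 188 and 179 FPKM (log2 ratio -3.46), so that DBP alone was low. ARG2, the mitochondrial arginase, stood at 27.2, 5.76, 15.1 and 10.1 FPKM. MAT2A, which makes the methyl donor S-adenosylmethionine, was lower at 45.3 FPKM in control and 21.8 in DBP. Also lower were 2 rows of SAT1, a polyamine acetyltransferase, with identical values. Of 60 nucleotide metabolism genes, 4 were lower (6.67%) and 0 higher: the nucleotidase NT5C1B, the phosphorylase PNP and the kinases UCK2 and ADK. NT5C1B stood at 6.53, 0.674, 5.36 and 6.16 FPKM, again low in DBP alone. Of 42 genes of glycolysis and lactate metabolism, 4 were lower (9.52%) and 1 higher (2.38%), with a median of -0.03. The lower were PFKM, PKM, PDK2 and the lactate carrier SLC16A3. All 4 were under 5 FPKM in control. Of 30 selenoprotein genes, 3 were lower (10%) and 0 higher.

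Lipid pathways held few calls. Of 48 genes of fatty acid oxidation, 1 copy of ACADSB was at least 2-fold lower, and the rate-limiting CPT1A had 5.54 FPKM (control) and 3.86 (DBP). Of 28 cholesterol synthesis genes, PMVK alone was called, and HMGCS1 stood at 11.9 and 11.7 FPKM. pparaa, the fatty acid sensor through which phthalate monoesters act in rodent liver, stood at 3.88, 8.66, 4.11 and 5.20 FPKM, a log2 ratio of 0.99 that just missed 2-fold. LPL, which frees fatty acids from lipoproteins, was higher in 1 copy at 3.26, 16.7, 16.1 and 2.38 FPKM, while the other copy was at 5.38 and 2.66 in control and DBP. apoeb, the lipid carrier apolipoprotein E, was lower at 390, 81.4, 175 and 404 FPKM. CERT1, which moves ceramide to the Golgi, was higher at 1.39, 12.007, 11.3 and 9.51 FPKM.

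Among all 249 genes with slc symbols, 10 were at least 2-fold lower and 8 higher, shares of 4.02% and 3.21% that lie near those of all genes. Of 47 carriers of organic ions, sugars and monocarboxylates, 5 were at least 2-fold lower (10.6%) and 2 higher (4.26%). Over all genes these shares were 3.56% and 4.88%. SLC5A2, a glucose carrier of the kidney tubule in mammals, stood at 3.74, 0.296, 2.46 and 2.85 FPKM, and slc5a8l at 7.15, 0.665, 8.60 and 6.90 FPKM, each low in DBP alone. SLC5A10 and SLC5A12 were also lower. These 4 made up all the calls in a list of 17 kidney tubule genes written after the values had been seen. Other defining genes of that list, such as CUBN (0.218 FPKM in control and 0.321 in DBP) and lrp2b (0.0653 and 0.0679), were too near 0 in both libraries to show a difference. The part of kidney tissue in the result was not tested. In the other direction, slc22a13a, of an organic anion carrier family, stood at 0.106, 8.12, 2.56 and 21.6 FPKM. Among 40 amino acid carriers, 3 were lower (SLC1A4, SLC1A5 and SLC38A2) and 1 higher (SLC43A2).

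Of 19 steroidogenesis genes, 2 were at least 2-fold higher and 1 lower, with a median of 0.24, counts too small to set apart from the shares of all genes. hsd3b1, which makes progesterone from pregnenolone, stood at 4.81, 11.2, 5.63 and 7.69 FPKM (log2 ratio 1.07). HSD11B2, which inactivates cortisol and also serves in making 11-ketotestosterone in fish, stood at 6.18, 16.3, 17.0 and 9.95 FPKM. For both, control was the lowest library. The cholesterol side-chain cleavage gene CYP11A1 did not pass 2-fold in either copy, at 5.37 and 5.35 FPKM in control and 10.2 and 9.41 in DBP. The Leydig marker cyp11c1 just missed 2-fold, at 53.3 FPKM in control and 105 in DBP (log2 ratio 0.97). STAR was at 132 and 159. In the list as a whole, 13 ratios were above 0 and 6 below. The glucagon gene gcga was far lower, at 18.5, 0.636, 6.93 and 12.8 FPKM, and insulin, ins, was at 4.49 and 1.297 in control and DBP. None of the 8 receptors for gonadotropins, androgens and estrogens that were compared was called.

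Glucocorticoid and retinoid genes held calls in both directions, too few to set apart from the shares of all genes. In a list of 14 glucocorticoid-responsive genes, written after the values had been seen, 2 were at least 2-fold lower and 1 higher. FKBP5, a chaperone partner of the receptor that is induced by cortisol, stood at 18.02, 2.42, 22.9 and 58.9 FPKM (log2 ratio -2.48), and the kinase sgk1 at 16.8, 3.11, 6.26 and 30.2 FPKM (log2 ratio -2.12). In both, DBP was the lowest library and DBP+DiBP the highest. The cortisol targets tsc22d3 and KLF9 did not pass 2-fold, at 2.27 and 8.96 FPKM in control and 4.01 and 9.98 in DBP, and the receptor NR3C1 stood at 4.81 and 6.18. Of 42 retinoid genes, 1 was lower and 1 higher, 2.38% each, under the shares of all genes (3.56% lower and 4.88% higher). RDH10, which oxidizes retinol on the way to retinoic acid, stood at 39.5, 8.70, 24.2 and 10.6 FPKM, and CYP26A1, which breaks retinoic acid down, at 6.17, 24.3, 26.2 and 42.7 FPKM. The synthesizing enzyme ALDH1A2 lay between, at 72.8 FPKM in control and 54.2 in DBP. In a list of 27 aldehyde dehydrogenases, alcohol dehydrogenases and aldo-keto reductases, 0 were called.

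In developmental signalling, genes of the Notch list lay on either side of control. Of 21 Notch pathway genes, 3 were at least 2-fold higher (14.3%, beside 4.88% of all genes) and 1 lower (4.76%, beside 3.56%). HEY1 stood at 2.91, 8.66, 7.94 and 1.90 FPKM and HES6 at 12.1, 27.6, 25.1 and 15.0 FPKM, while HES4 was lower at 56.3, 20.9, 36.1 and 13.1 FPKM. LFNG, a glycosyltransferase that tunes Notch receptors, was higher at 0.694 FPKM in control and 3.52 in DBP. Of 51 genes of TGF-beta and BMP signalling, 3 were higher (5.88%) and 1 lower (1.96%), beside 4.88% and 3.56% of all genes. ID1, a direct BMP target, stood at 49.1, 149, 78.5 and 82.8 FPKM, and the activin receptor ACVR1B at 0.236, 4.41, 4.84 and 3.55 FPKM, with control the lowest library for each. The activin subunit INHBA was lower at 5.18 and 1.32 FPKM in control and DBP, and the Sertoli cell hormone amh did not pass 2-fold at 79.1 and 52.6. Growth factor genes hbegfa and VEGFA (1 of 2 copies) were lower.

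Of 89 homeobox, SOX, FOX, GATA and T-box genes, 4 were at least 2-fold higher (4.49%) and 2 lower (2.25%). Both shares were under those of all genes (4.88% and 3.56%). The lower were SOX4 and sox4a with identical values. SOX8, a Sertoli cell factor in mammals, stood at 3.76, 13.7, 8.72 and 8.75 FPKM, and GATA3 at 3.39, 11.1, 9.31 and 7.11 FPKM. SOX5 was higher too (1.19 and 11.7 FPKM in control and DBP), but its values were those of 2 further rows. Of 18 Kruppel-like, SP and CEBP genes, 3 were lower (16.7%) and 0 higher, with KLF6 at 20.7, 4.53, 9.91 and 12.5 FPKM. Hypoxia targets had 3 of 25 lower (12%) and 0 higher: ADM, PFKFB3 and VEGFA. Clock genes had 2 of 24 lower (8.33%), BHLHE40 and nr1d2a, with a median of -0.33. These lower shares stand beside 3.56% of all genes.

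Genes of detoxification and redox defence held few calls. Of 61 xenobiotic metabolism genes, gstt1a was at least 2-fold lower (27.9, 10.96, 10.2 and 6.82 FPKM) and cyp2ad6 higher, with a median of -0.14. Of 42 antioxidant genes, 3 were lower (7.14%, beside 3.56% of all genes) and 1 higher (2.38%, beside 4.88%). The glutathione peroxidase gpx1b stood at 88.9, 25.1, 38.2 and 314 FPKM, low in both single exposures. keap1a, the inhibitor of the antioxidant regulator Nrf2, stood at 17.997, 8.03, 10.3 and 14.9 FPKM. SOD1 and HMOX1, markers often read for oxidative stress, were level, at 237 and 18.5 FPKM in control and 238 and 18.3 in DBP. SOD2 was at 70.6 and 105.

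Beyond these pathways, several of the highest ratios belonged to genes of mixed function. endou2, of a family of endoribonucleases, stood at 0.448, 36.5, 51.8 and 17.4 FPKM (log2 ratio 4.70). OGA, which takes O-GlcNAc off proteins, stood at 1.81, 21.7, 11.2 and 17.6 FPKM, and the kinase taok2a at 0.358, 11.7, 9.01 and 6.49 FPKM. In all 3 genes control was the lowest library by a wide margin. A different pattern was seen for FBXO42, a ubiquitin ligase subunit, at 5.02, 80.8, 0.611 and 79.3 FPKM, and for eslec, at 12.8, 91.4, 7.03 and 107 FPKM. These were high in the libraries exposed to DBP and low in control and DiBP. MARCKS, an actin-binding substrate of protein kinase C, stood at 26.0, 146, 126 and 52.6 FPKM. The vesicle traffic gene RAB8A stood at 1.13, 9.58, 4.39 and 2.63 FPKM.

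The spink family of Kazal-type serine protease inhibitors was also picked out by the scan. Of its 10 members, 4 were at least 2-fold higher (40%) and 1 lower (10%), beside 4.88% and 3.56% of all genes. spink2.6 stood at 12.9, 47.5, 5.26 and 192 FPKM and spink2.2 at 5.71, 24.4, 2.64 and 82.9 FPKM, high in both libraries exposed to DBP and lowest in DiBP. spink2.3 and spink2.7 had identical values. Microtubule genes had positive medians, 0.35 for 31 kinesins, of which 3 were higher and 0 lower, and 0.27 for 38 tubulins and their partners, of which tubb6 alone was called, as lower. Lists of general upkeep had shares of calls under those of all genes: 3 of 182 splicing genes and 1 of 57 proteasome genes were called. The mir and dusp families completed the 6 that were picked out. With rows of identical values counted once, the mir, eef and ifi families would have fallen short of the 3 called members required. Of 14 genes of dual-specificity phosphatases (dusp), which switch off MAP kinases, 3 were lower (DUSP1, DUSP2 and DUSP5) and 0 higher. At least DUSP5 is on the early-response list that was set aside here, in which 35 of 50 genes were lower. The pimr family, genes named as pim-related kinases, had the most members called in a single direction: 18 of 99 were higher and 0 lower (median 0.54). At 18.2% it fell short of the 20% required. Its 99 rows held 75 distinct measurements. In the whole scan, 108 of the 225 families had no gene called.

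**Figure D4:**
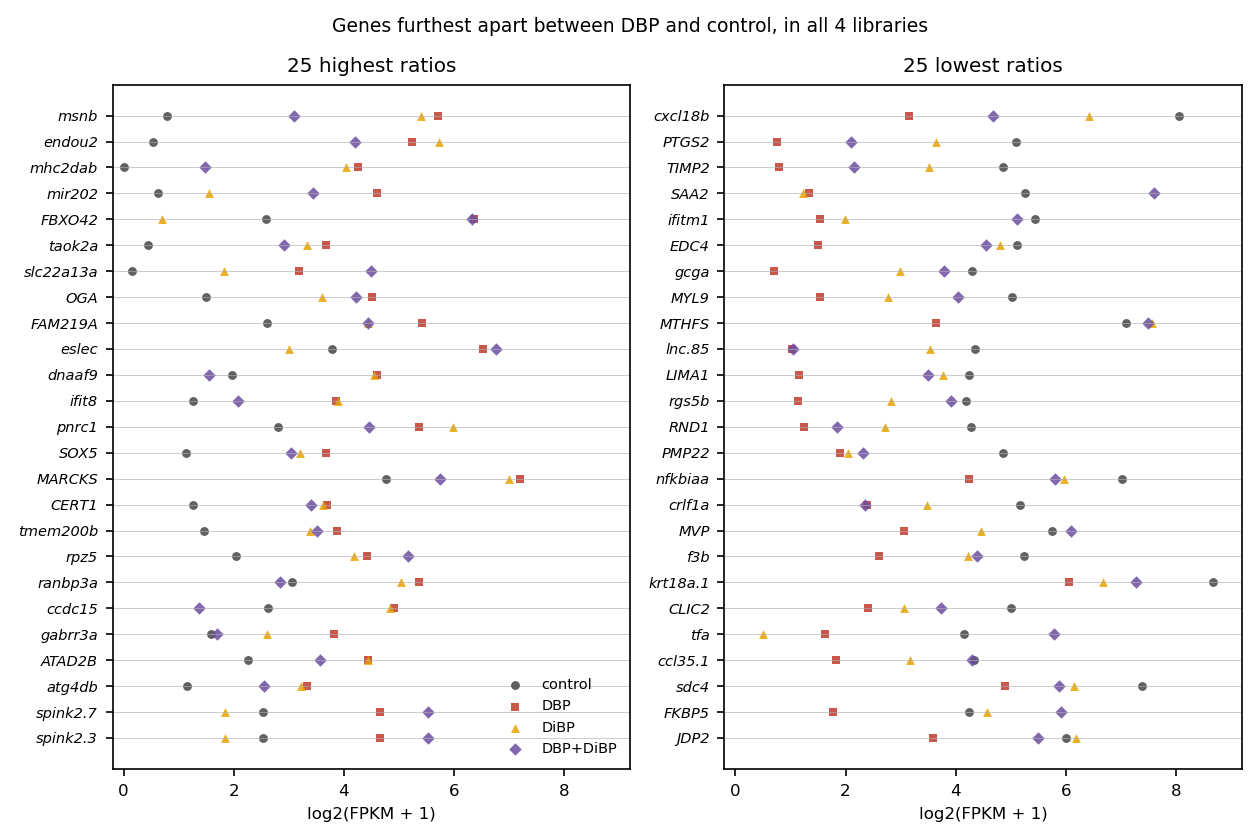
The 25 highest (left) and 25 lowest (right) ratios of DBP to control among named genes, with log2(FPKM + 1) on the horizontal axis and 1 symbol per library. The control circles lie at the left of the DBP squares in the left panel and at the right of them in the right panel, as the choice of genes requires. The DiBP and DBP+DiBP symbols show, for example, FBXO42 high only with DBP present and MTHFS low only in DBP.

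Of 64 small noncoding RNA genes, 9 were at least 2-fold lower (14.1%, in 8 distinct measurements) and 2 higher (3.1%). Over all genes these shares were 3.56% and 4.88%. In the mir family 3 of 12 were lower (25%) and 1 higher (8.33%). rn7sl1, the RNA of the signal recognition particle, stood at 391, 74.6, 69.6 and 55.0 FPKM, with control alone high. mir202, a microRNA gene known from gonads, stood at 0.543, 23.3, 1.91 and 9.79 FPKM (log2 ratio 3.98), high in DBP and lowest in control. mir193a-1 was lower, at 5.53, 0.746, 0.762 and 1.29 FPKM, and MIR15A and mir16c shared their values at 4.62 FPKM in control and 0.817 in DBP. FPKM of such short genes rests on few fragments, and whether mature or precursor RNA was read is not stated in the sources used here.

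Markers of other cell types bear on several of these groups. Leydig and Sertoli markers were present in both libraries. Of 7 Leydig markers compared, all had a ratio above 0, with a median of 0.71, and 1 was at least 2-fold higher. Their summed level was 2286 FPKM in control and 2766 in DBP, most of it insl3. None of 10 Sertoli markers was called, and their sum was 449 and 428 FPKM. Macrophage markers had 3 of 28 higher (10.7%, beside 4.88% of all genes) and 0 lower. The higher were c1qa, c1qc and marco, and the sums of the list were 249 and 283 FPKM. The 28 rows held 17 distinct measurements, so these sums count some values, such as those of mfap4 genes, more than once. Neutrophil markers had 0 of 6 called, with 2 ratios above 0 and 4 below. Their sums were 49.8 and 39.3 FPKM, of which the cytokine gene il1b made up 24.98 and 14.1. The lysozyme gene lyz was at 7.58 and 6.82 FPKM, and MMP9 at 8.39 and 11.3. Of 12 markers of smooth muscle and stroma, 2 were lower (MYL9 and TAGLN, 1 copy each) and 1 higher (COL1A1), with sums of 510 and 706 FPKM and acta2 at 29.1 and 40.7. Their part in the results on cytokines, contractile genes and matrix was not tested.

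Some markers of neighbouring organs were also present in both libraries. Hepatocyte markers had 4 of 25 at least 2-fold lower (16%, beside 3.56% of all genes) and 0 higher. Their sums were 227 and 142 FPKM, of which apoc1 made up 113 and 39.2. Vitellogenins, which define liver in females, were all under 1 FPKM. Pancreas markers had 3 of 21 lower (14.3%), with sums of 254 and 216 FPKM and the trypsin gene prss1 at 53.5 and 42.6. Enterocyte markers had 2 of 19 lower (10.5%), with 9 ratios above 0 and 10 below. Their sums were 50.6 and 35.7 FPKM, of which lgals2b made up 23.9 and 8.81 and FABP6 6.45 and 10.8. Others, such as FABP2 (0.467 and 0.326) and VIL1 (0.760 and 0.386), were under 1 FPKM in both libraries. In DBP+DiBP the enterocyte sum was 6837 FPKM. FABP2, for example, met the minimum mean through that library alone, and 803 of the genes compared averaged under 1 FPKM over control and DBP. Oocyte markers had 7 of 24 higher (29.2%, in 3 distinct measurements) and 1 lower (4.17%). Over all genes these shares were 4.88% and 3.56%. Among the 24 ratios, 17 were above 0 and 7 below. Of the higher, 5 were zp2 rows with identical values, at 0.950 FPKM in control and 4.06 in DBP. The lower was ZAR1, at 6.07 and 2.11 FPKM. The sums of these markers were 364 and 278 FPKM, of which org made up 294 and 180. The part of such tissue in the values for apoeb, SAA2, tfa and gcga was not tested.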

How the data were processed

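Per the labels' protocols, testis RNA was made into NEBNext Ultra libraries from 3 μg and read in paired ends. The tools named in the submitters' processing notes are HISAT2 and HTSeq 0.6.1, with the GRCz10 build, and which of them made the deposited values is not stated. The authors deposited 1 value per gene and library, taken here as FPKM from the values themselves, since neither header nor label names a unit. Whole reads could not be recovered, so depth is unknown. A weak pile-up among low values, 48 of 7024 identifiers, put the depth of DBP at about 1.05 times that of control. The assembled loci, 14544 of 49610 identifiers, were not compared. Symbols came from an Ensembl gene name table. Symbols in capitals lack the copy letter.

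Differences of log2(FPKM + 1) were computed with pandas 2.3.3 and numpy 2.4.6 from values as deposited, with no test, since each group was 1 library. The code of the 2-fold rule was run on a copy of the control library with set changes and no noise. Its outcome was fixed by that design, so it gives no measure of error in the counts. The members and the 102 lists were chosen with earlier results of these data known. Some list patterns were narrowed after a first count had drawn in unrelated genes, and 3 lists (kidney tubule, SRF and YAP targets, glucocorticoid response) were added after the values were seen. Named genes were the 25 highest and 25 lowest ratios with a mean of at least 5 FPKM outside early-response, heat shock and germ cell lists, up to 3 called genes per list and direction with at least 2 FPKM in control or DBP, and genes a reader would look for. Other genes, such as unlisted second copies, were chosen after their values were seen. Families shared the letters before the first digit of the symbol, had at least 8 genes, and were named with at least 3 members and 20% called in a single direction. Alternatives were other pseudocounts, minimum means, scalings, fold thresholds and merged identical rows. Some items are not reported here.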

Additional observations from a re-analysis of the deposited data

How the results depend on the processing

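No paired analysis was possible because each group was 1 library. With a pseudocount of 0.1 in place of 1, 1436 genes were higher and 999 lower, and with 5, 258 and 214. A minimum mean of 5 FPKM, which compares fewer genes, left 431 and 310. At 4-fold 97 were higher and 120 lower, and at 1.5-fold 2429 and 1624. With no minimum, with the minimum over control and DBP alone, under the 3 other scalings and with identical rows merged, the counts stayed within 1.5 times those reported, at 691 to 977 higher and 545 to 677 lower. The share of calls that were higher ran from 50.9% under median-ratio scaling to 64.2% with equal totals. The median log2 ratio ran from -0.02 to 0.10 over the scalings, so list medians close to 0, such as those of SRF and YAP targets and of matrix remodelling, changed sign with it. Of 262 named genes called, 143 lost the call in at least 1 setting, 142 of them with a pseudocount of 5 and 19 under a scaling, and 0 reversed. Depth is unknown, so the counting error of low values cannot be given.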

Other observations

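Among the 13 genes that averaged at least 100 FPKM and were at least 2-fold higher in DBP, those named here were chosen after their values were seen. In that class oip5, a centromere protein gene, stood at 99.5, 262, 202 and 76.5 FPKM in the order control, DBP, DiBP and DBP+DiBP. The small GTPase gene rhocb stood at 146, 313, 254 and 156 FPKM in the same order, and rarres3l at 498, 1004, 910 and 388 FPKM. DYNLT5, of a dynein light chain family, stood at 144, 293, 236 and 99.9 FPKM. In these 4 genes DBP was the highest library and DiBP the next. On the lower side of the same level class, ptmab, a prothymosin gene, stood at 110, 49.6, 52.4 and 231 FPKM and the metallothionein gene MT1X at 102, 43.0, 17.2 and 458 FPKM.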
